A study of Vaccinium virgatum with 9 samples.

Results

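In fruit of rabbiteye blueberry, 223 of the 38665 genes counted formed a staircase. Their means were lowest in fruit of watered plants and higher in fruit of plants given potassium sulfate at flowering. They were higher again in fruit of plants given it at the young fruit stage. The genes were chosen by their mean abundance in the 3 groups, in CPM (counts per 1000000 counts of a library, with library sizes scaled by TMM factors). A member had at least 5 CPM after young-fruit potassium, at least 1.5 times the water mean after flowering potassium, and more than 1.5 times the flowering mean after young-fruit potassium. These values chose the members, so the size and direction of both steps are given below as descriptions and not as findings. Of 14354 genes that reached 5 CPM after young-fruit potassium, 1957 passed the first step, 834 passed the second, and the 223 passed both.

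The study sequenced RNA from pooled fruit of 7-year-old potted plants of Menditoo × Tifblue, 1 plant to a pot. The 3 groups of 3 libraries were plants given water (CK), plants given 10 g of potassium fertilizer each at the flowering stage (KH), and plants given the same amount at the young fruit stage (YG). The fertilizer was potassium sulfate dissolved in water, so potassium and sulfate were always given together and cannot be told apart. All fruit was picked 90 days after flowering, with 12 to 18 fruits for each replicate. The time between treatment and picking therefore differed between KH and YG, and it cannot be told apart from the stage of treatment. The labels do not say that replicates came from separate plants, and p-values here measure only the spread between libraries, which may be technical. Whole fruit was sequenced, so a lower level can mean fewer cells of a type or less RNA per cell, and these cannot be told apart.

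Potassium is the most abundant inorganic cation of plant cells. It is imported into growing fruit with sugar through the phloem, activates many enzymes, and drives the turgor that expands fruit cells. Sulfate is the form in which plants take up sulfur for cysteine, methionine and glutathione. As a blueberry ripens, its skin accumulates anthocyanins, the flavonoid pigments that turn the fruit from green to blue, and the series title names anthocyanin production under potassium as the subject. The table pairs no identifier with a gene name, and no annotation was used here. The graded genes can therefore not be assigned to the pigment pathway, to potassium transport or to any other function. Only 2 identifiers are given, and other members are described by their rank.

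Library totals ran from 15655016 to 18424967 counts. The prefix Vadar was carried by 195 of the 223, and the other 28 had the second prefix in the table. They made up 1.54% of the 12636 Vadar genes and 1.63% of the 1718 other loci that reached 5 CPM after young-fruit potassium. Median abundance was 5.56 CPM in water, 14.6 CPM after flowering potassium and 35.0 CPM after young-fruit potassium. After young-fruit potassium the members spanned 5.19 to 2371 CPM, 58 of them reached 100 CPM and 6 reached 1000 CPM. In water 28 members lay under 1 CPM and 13 at or above 100 CPM. The median of all 14354 genes at or above the same floor was 25.2 CPM in water and 26.2 CPM after young-fruit potassium.

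Summed over members, the share of each library's counts was higher at each stage. The 223 genes took 0.599, 0.598 and 0.601% of the counts in the 3 water libraries. After flowering potassium they took 1.56, 1.56 and 1.54%, and after young-fruit potassium 2.98, 3.09 and 3.08%. The group means were 0.599 ± 0.00159% (SD, n = 3), 1.55 ± 0.00781% and 3.05 ± 0.0571%. The members' share thus varied little between libraries of a group. The order of the groups was set by the rule that chose the members, and the lowest young-fruit library, replicate 1, lay above every flowering library. The 10 most abundant members supplied between 41.6 and 44.4% of the summed CPM in every library, so their part of the total was similar in all 3 groups.

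**Figure D1:**
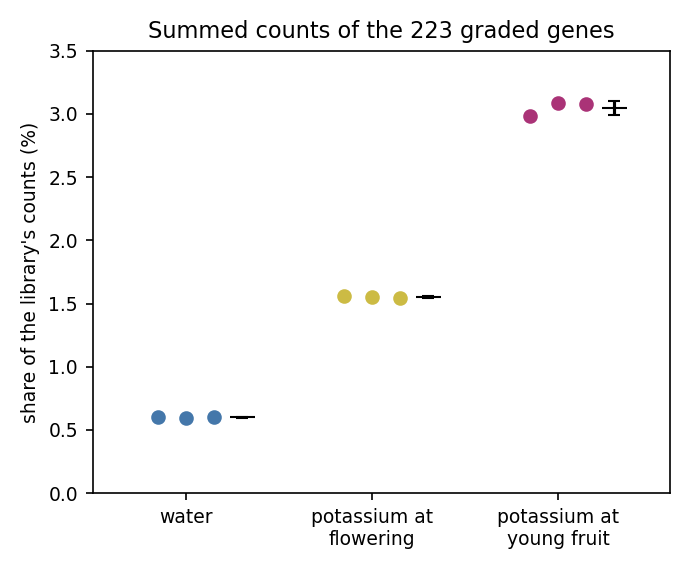
Share of each library's counts taken by the 223 graded genes (vertical axis, percent), 1 point per library, with the mean and SD of 3 libraries as a black bar beside each group. The water libraries sit at 0.598 to 0.601%, flowering at 1.54 to 1.56% and young fruit at 2.98 to 3.09%, an order that the rule set.

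The most abundant member was Vadar_g29338.v1.2, named by a rule as first in abundance after young-fruit potassium. It stood at 368.9, 390.3 and 380.6 CPM in water, at 1494, 1556 and 1433 CPM after flowering potassium, and at 2280, 2442 and 2390 CPM after young-fruit potassium. Its groups lay far apart relative to their own spread, with SDs of 10.7, 61.8 and 82.4 CPM. Most of its rise was present already after flowering potassium: the first step was 3.93-fold and the second 1.59-fold. In the fit across all genes its log2 fold change was 1.96 ± 0.045 (SE) for flowering against water and 0.67 ± 0.043 for young fruit against flowering, with edgeR adjusted p values of 1.42e-20 and 3.12e-11. These are descriptive, since the same contrasts chose the gene.

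The member with the largest overall ratio among those with at least 10 water counts was Vadar_g26641.v1.2. It had 3.62, 3.30 and 3.45 CPM in water, 139, 151.9 and 141.7 CPM after flowering potassium, and 466.7, 583.9 and 578.6 CPM after young-fruit potassium. From a mean of 3.46 CPM and 182 counts in watered fruit, it ranked 15 in abundance among the 223 after young-fruit potassium. Young-fruit replicate 1 was its lowest young-fruit library and still more than 3 times any flowering library. The steps were 41.7-fold and 3.77-fold, 157-fold in all. Its log2 fold changes were 5.37 ± 0.102 and 1.92 ± 0.068 (SE), with edgeR adjusted p values of 6.17e-22 and 1.04e-15. These values are descriptive as well, since the same contrasts and the ratio itself chose the gene.

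The members ranked 2 to 4 in abundance had the same outline as the first. The member ranked 2 had 343.2, 290 and 368.6 CPM in water, 967.9, 958.9 and 937.3 CPM after flowering potassium, and 2104, 2046 and 2108 CPM after young-fruit potassium. The member ranked 3 went from 275.1 ± 26.9 CPM (SD, n = 3) through 1162 ± 9.9 to 2062 ± 24.9 CPM. The member ranked 4 went from 110.7 ± 7.98 through 683.1 ± 12.8 to 1189 ± 38.5 CPM. Their ratios of young fruit to water were 6.25, 7.49 and 10.7. Their groups did not overlap, which held for 96.9% of all members and, in the same order, for 5.59% of all genes tested.

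Ranks 5 and 6 show how unlike the members are within one rule. The member ranked 5 was already abundant in water, at 406.2, 517.3 and 402.1 CPM. It stood at 676.1, 674.6 and 676.0 CPM after flowering potassium and at 995.6, 1099 and 1103 CPM after young-fruit potassium. Its ratio of young fruit to water was only 2.41, and water replicate 2 was its highest water library. The member ranked 6 had 19.0, 25.5 and 15.7 CPM in water, 261.7, 312.5 and 278.3 CPM after flowering potassium, and 963.1, 1083 and 1062 CPM after young-fruit potassium. It ended at nearly the same level as the member ranked 5, with a ratio to water of 51.6. The first of the loci without the Vadar prefix ranked 7, with 199.4 ± 5.63, 376.9 ± 1.96 and 901.7 ± 20.5 CPM in the 3 groups.

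**Figure D2:**
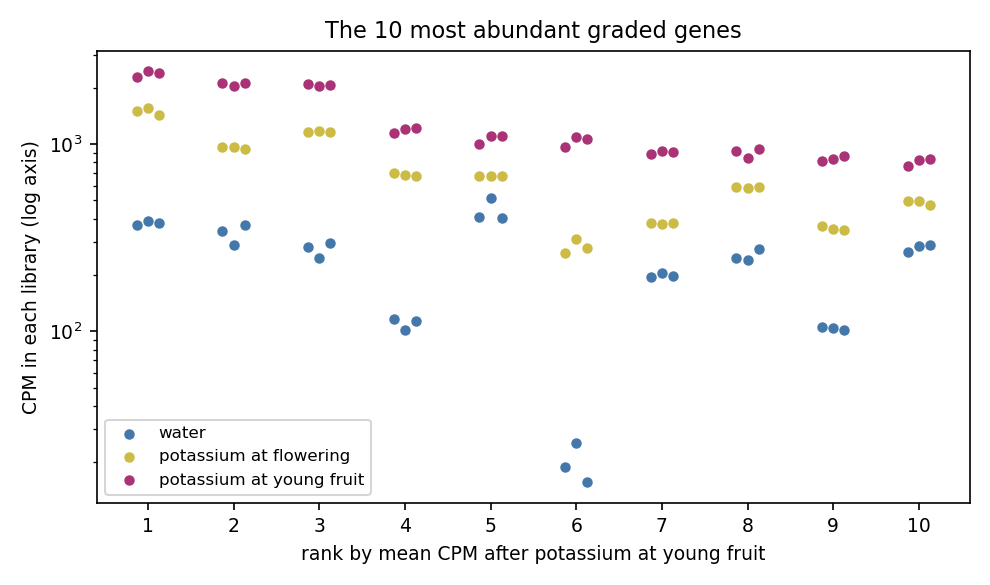
CPM in each of the 9 libraries (vertical log axis) of the 10 members with the highest mean after young-fruit potassium, ordered by that rank. In each of the 10 the 3 colours do not overlap, as in 96.9% of all members and, in the same order, 5.59% of all genes tested. The member ranked 6 starts lowest in water, at 15.7 to 25.5 CPM.

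Across the 223 genes the ratio of young fruit to water ran from 2.26 to 503 with a median of 5.72. It reached 4-fold in 149 genes, 10-fold in 51 and 30-fold in 13. The first step had a median of 2.41-fold (range 1.5 to 98.7) and the second a median of 2.03-fold (range 1.504 to 13.9). The first step was the larger one in 152 members and the second in 71. On the log2 scale, flowering potassium reached a median of 56.8% of the rise seen after young-fruit potassium, with quartiles at 47.6 and 66.2%. Both steps were at least 2-fold in 83 members.

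The outermost members in this division were scarce in water. At one end, the member ranked 118 in abundance had 0.302, 0.254 and 0.666 CPM in water, 18.8, 20.3 and 21.1 CPM after flowering potassium, and 32.6, 30.4 and 33.2 CPM after young-fruit potassium. Flowering potassium reached 89.3% of its log2 rise. At the other end, the member ranked 187 had 0.422, 0.153 and 0.545 CPM in water, 0.610, 0.455 and 0.832 CPM after flowering potassium, and 8.86, 9.46 and 7.92 CPM after young-fruit potassium. Only 16.7% of its log2 rise was present after flowering potassium, where its libraries overlapped with water. The member ranked 198 was of the same kind, at 0.263, 0.530 and 7.35 CPM in the group means.

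**Figure D3:**
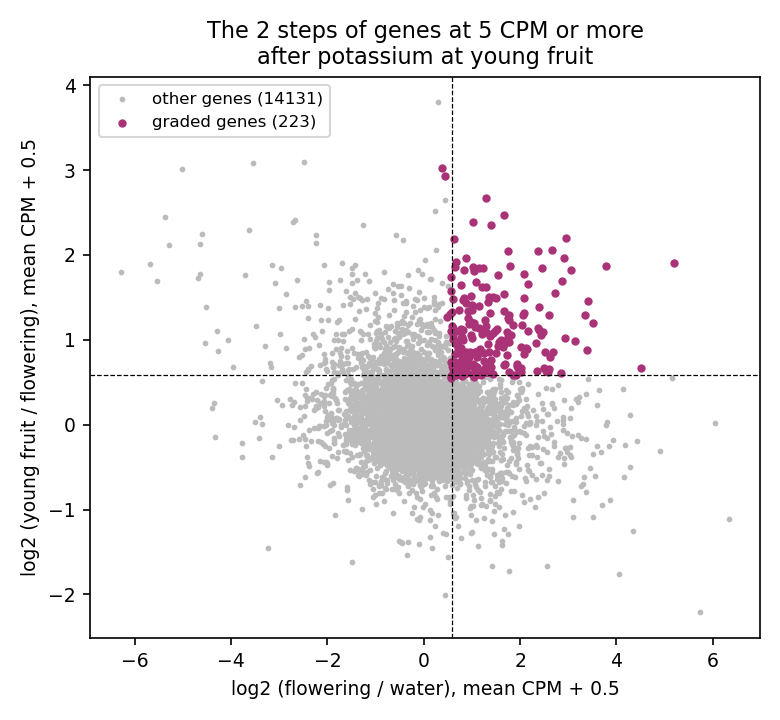
The first step (horizontal axis, log2 ratio of flowering to water) against the second step (vertical axis, log2 ratio of young fruit to flowering) for genes with at least 5 CPM after young-fruit potassium, with 0.5 CPM added to each mean. Dashed lines mark 1.5-fold, and the 223 graded genes fill the upper right corner by construction. Some of them lie across a line because of the added 0.5 CPM, which changes the ratios of scarce genes most.

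Members scarce in water had the larger ratios. The 28 members under 1 CPM in water had medians of 6.33-fold for the first step and 2.92-fold for the second. The 111 members at 1 to 10 CPM had 2.21-fold and 2.05-fold, the 71 at 10 to 100 CPM had 2.33-fold and 1.82-fold, and the 13 at or above 100 CPM had 2.43-fold and 1.74-fold. A scarce gene had to rise further to reach the floor of 5 CPM, so part of this order is set by the rule. None of the members was at 0 counts in all 3 water libraries, and 3 had fewer than 10 water counts. The scarcest was a locus without the Vadar prefix, with 2 counts over the water libraries, 174 over the flowering and 888 over the young-fruit libraries. From the summed counts and summed library sizes its ratio of young fruit to water was 491, where the ratio of mean CPM is 503 (95% interval of the former 136 to 4060, from an exact Clopper-Pearson interval for the young-fruit part of the counts, which covers counting error only).

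At the edges of the rule the members do not stand apart from other genes. The 2 members with the smallest young-fruit means had 5.19 and 5.30 CPM, and the nearest genes that made both steps below the floor had 4.88 and 4.87 CPM. The smallest first steps inside were 1.5 and 1.52-fold, against 1.499 and 1.498-fold just outside. The smallest second steps inside were 1.504 and 1.506-fold, against 1.499 and 1.498-fold outside. At least 1 of the steps was under 1.6-fold in 58 members. Another 20 genes failed only the first step with a ratio of at least 1.4, and 37 failed only the second in that way. The 223 are thus a section through a continuous cloud of genes.

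All 223 members passed the count filter and were tested among 25728 genes with edgeR's quasi-likelihood test (adjusted p under 0.05, Benjamini-Hochberg over all genes tested). For flowering against water 218 members were called higher, where 24.3% of all genes tested were. For young fruit against water 223 were called higher, where 25.6% of all genes were, and for young fruit against flowering 221, where 10.4% were. Both steps were called in 217 members and in 3.33% of all genes tested. Because the rule used these contrasts, the counts describe the members and support nothing further. The median log2 fold changes of members were 1.26, 2.50 and 1.03 in the 3 comparisons, and those of all genes tested -0.02, -0.02 and -0.0035.

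The libraries of the 3 groups lay in the order water, flowering, young fruit without overlap in 216 members, as they did in 5.59% of all genes tested. Water and flowering overlapped in 4 of the other 7 members, and flowering and young fruit in 3. The clearest of these was the member ranked 200, which had 3.20, 2.54 and 2.30 CPM in water, 3.85, 5.65 and 3.65 CPM after flowering potassium, and 4.05, 15.1 and 2.79 CPM after young-fruit potassium. Its place rests on young-fruit replicate 2: without that library its young-fruit mean falls under the floor, and the other 2 young-fruit libraries lay within or below the flowering range. Its edgeR adjusted p was 0.18 for flowering against water and 0.201 for young fruit against flowering. It was also the only member in which water and young fruit overlapped.

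The other members not called at 1 of the steps were also scarce, with young-fruit means of 5.65 to 8.75 CPM. At the first step these were 4 members, at edgeR adjusted p values of 0.151, 0.0536, 0.136 and 0.0707. The member ranked 187, described above, is the first of them. At the second step the member ranked 218 had 4.40, 3.31 and 3.26 CPM after flowering potassium and 4.18, 5.28 and 7.49 CPM after young-fruit potassium, with an edgeR adjusted p of 0.071. With 270 counts over the 3 young-fruit libraries, it is one of the least deeply counted members.

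Replicates of most members were close. The median coefficient of variation between replicates was 14.1% in water, 7.52% after flowering potassium and 6.17% after young-fruit potassium. Over all genes that reached 5 CPM after young-fruit potassium the medians were 7.18, 6.15 and 6.73%. The members were less abundant in water than those genes, at a median of 5.56 against 25.2 CPM, and the part of this depth in the wider water spread was not tested. In water 15 members varied by more than 50%, and the highest of them had 0.837 CPM. The highest young-fruit library exceeded the lowest by less than 1.5-fold in 208 members, and by more than 2-fold in 1, the member ranked 200.

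The members were read library by library as a set. The median member deviated from its group mean by -0.035 on the log2 scale in young-fruit replicate 1, by 0.015 and 0.018 in replicates 2 and 3, and by at most 0.020 in any water or flowering library. Young-fruit replicate 1 was the lowest of the 3: 81 of the 223 members lay above their group mean there, against 132 and 135 in replicates 2 and 3 and 105 to 128 in the water and flowering libraries. All genes at the floor deviated by a median of -0.003 in that library, and their count above the group mean was not taken. Members share each library and its scaling, so the 223 are not independent readings. Deviations of member pairs from their group means correlated at a mean r of 0.019 over the 9 libraries, against 0.005 for pairs of all genes at the floor. These correlations share libraries and scaling, and both are close to 0.

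Membership was then read in libraries that had not been used to choose the genes. The rule was applied to 6 libraries, 2 from each group, and the remaining library of each group was scaled separately. With replicate 1 held out, 219 of 227 genes so chosen (96.5%) had water below flowering below young fruit in the held-out libraries. With replicate 2 it was 214 of 216 (99.1%), and with replicate 3 it was 205 of 213 (96.2%). Among all genes at the same floor in the 6 libraries, 26.1, 26.2 and 28.6% had that order in the held-out ones. Both full steps of 1.5-fold were met in the held-out libraries by 73.6, 77.8 and 76.5% of the chosen genes, and by 1.46, 1.49 and 1.68% of all genes at the floor.

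The median sizes of the steps were similar in the held-out and the choosing libraries. With 0.5 CPM added to each value, the chosen genes had median log2 first steps of 1.190, 1.259 and 1.197 in the held-out libraries, against 1.184, 1.248 and 1.191 in those that chose them. For the second step the medians were 0.937, 0.973 and 0.994 held out and 0.960, 0.987 and 0.956 in the choosing libraries. All genes at the floor had medians of 0.097, 0.111 and 0.087 for the first step and of -0.002, -0.006 and 0.011 for the second. Held-out libraries belong to the same experiment as the others, and the rule was set with earlier results of these data known. This reading therefore describes how close the replicates of a group were, and not a repeat of the treatment.

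**Figure D4:**
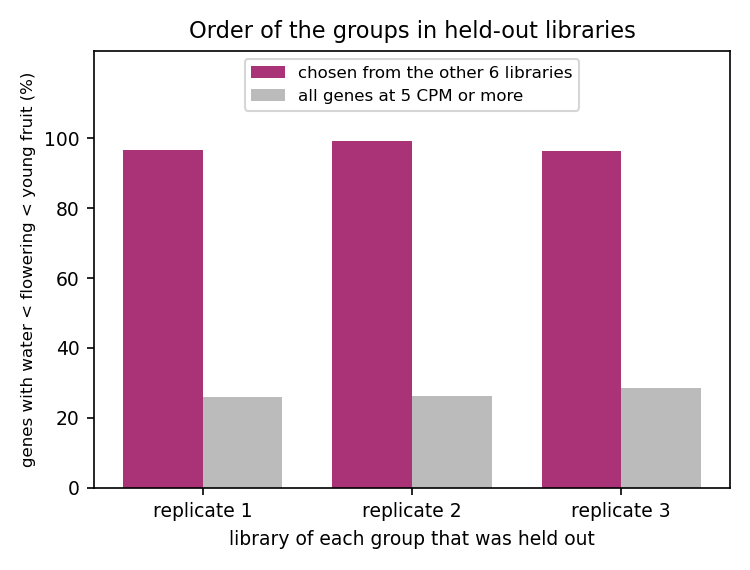
Percent of genes in which the 3 held-out libraries, 1 per group, had the order water, flowering, young fruit (vertical axis), for genes chosen by the rule in the other 6 libraries and for all genes with at least 5 CPM after young-fruit potassium there. The chosen genes reach 96.2 to 99.1% and all genes 26.1 to 28.6%.

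A feature that the rule did not use was shared by part of the members: their identifiers lay next to each other. The 195 Vadar members had 283 listed neighbours whose number was 1 higher or 1 lower. A gene beside more than 1 member was counted for each of them. Of these 283, 30 (10.6%) were members themselves, while members made up 0.689% of all 28300 Vadar genes. Of the 195 members, 25 had a member as a neighbour. Among the 147 neighbours, counted in the same way, that reached 5 CPM after young-fruit potassium the share was 20.4%. Members made up 1.54% of all such Vadar genes. The sources used here do not say whether the numbers follow the order of genes on the chromosomes. Neighbouring copies of a gene can also share reads, and how the counting divided such reads is not given.

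Neighbouring identifiers were not seen in this set alone. Under the same thresholds with the groups in other orders, 101 genes were graded with the highest mean after flowering potassium, 154 fell in steps to a lowest mean after young-fruit potassium, and 233 fell in steps to a lowest mean after flowering potassium. Listed neighbours of their Vadar genes were counted in the same way. Of these, 2 of 97, 4 of 177 and 24 of 277 (2.06, 2.26 and 8.66%) belonged to the same set. The sets made up 0.251, 0.463 and 0.721% of all Vadar genes. The differences between the 4 sets were not tested.

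With numbers at most 5 apart joined into a run, a distance chosen after the identifiers had been seen, 43 members fell into 15 runs. Of these runs 8 were pairs and 7 held 3 or more members, 27 in all. The groups did not overlap in any of these 27, which is near the 96.9% of all 223 members. Among all genes tested 5.59% had that order without overlap. The order of the group means is set by the rule, and members of a run often differed widely in level.

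The longest run held 6 of the 9 genes listed across its span. Its members had water means of 0.609 to 81.6 CPM and young-fruit means of 32.2 to 341 CPM, and their ratios of young fruit to water ran from 4.18 to 52.8. By place along the run, the water means were 1.49, 0.609, 4.17, 3.79, 3.99 and 81.6 CPM. The flowering means were 12.6, 7.89, 29.2, 30.7, 19.7 and 184 CPM, and the young-fruit means 38.1, 32.2, 123, 101, 63.0 and 341 CPM. The last member was the most abundant in all 3 groups and had the smallest ratio. The 3 genes inside the span that were not members stayed at or under 3.03 CPM in every group mean.

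The next longest run held 5 members among 6 listed genes. Its first steps were 1.86 to 3.87-fold, against 2.25 to 12.9-fold in the longest run, and its second steps 3.00 to 4.49-fold against 1.85 to 4.23-fold, so the ranges of both steps overlapped between these runs. Its water means ran from 0.799 to 11.1 CPM, its flowering means from 1.55 to 20.8 CPM and its young-fruit means from 6.94 to 82.7 CPM. The member last in this run had 10.1, 11.2 and 12.1 CPM in water, 19.5, 20.5 and 22.3 CPM after flowering potassium, and 85.8, 81.3 and 81.0 CPM after young-fruit potassium.

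Vadar_g26641.v1.2 belonged to a run of 3 together with the members ranked 6 and 20 in abundance. These 3 were the most abundant of the longer runs, with young-fruit means of 464 to 1036 CPM. In water they differed more, at 3.46, 76.9 and 20.1 CPM by place, so that their ratios of young fruit to water were 157, 6.03 and 51.6. The member ranked 20 had 360.1, 481.7 and 549.8 CPM after young-fruit potassium, and its replicate 1 was lowest there, as it was for the 2 others. The gene inside the span that was not a member had at most 0.172 CPM in any group mean.

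A run of 4 members had water means of 1.37 to 11.9 CPM and young-fruit means of 6.11 to 114 CPM, with ratios of 3.53 to 9.53. The remaining 3 runs had 3 members each. In the first of them the ratios ran from 3.89 to 11.2, and a listed non-member within its span reached 51.8 CPM and was not called higher after young-fruit potassium than in water. In the second the member in the middle had 0, 0.305 and 0.182 CPM in water and 17.7, 20.3 and 19.1 CPM after young-fruit potassium, a ratio of 117, while the members beside it had ratios of 3.92 and 6.26. In the last the ratios ran from 8.95 to 47.0.

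**Figure D5:**
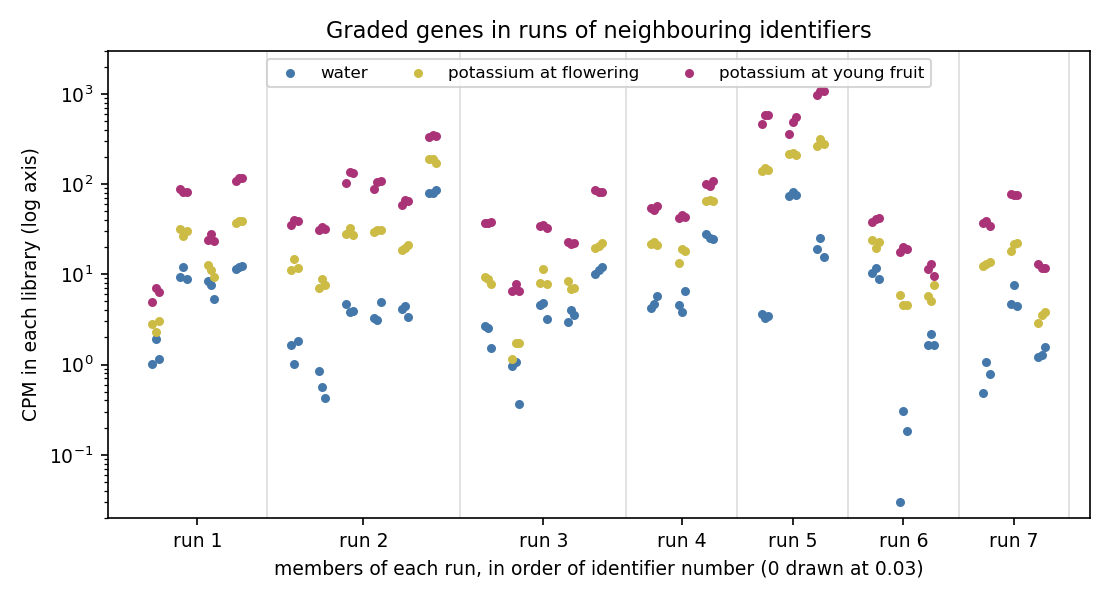
CPM in each of the 9 libraries (vertical log axis, 0 drawn at 0.03) of the 27 members in the 7 runs of 3 or more neighbouring identifiers, placed in order of identifier number within each run. The colours stack in the order water, flowering, young fruit, as the rule requires of the means, and levels within a run differ, as in run 2 with young-fruit means of 32.2 to 341 CPM.

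Deviations between replicates were also compared, as a description. Over the 51 pairs within runs, the correlation of deviations from the group means across the 9 libraries had a median of 0.26, against 0.02 over the other 18864 pairs of Vadar members. The runs were not alike: in the longest run single pairs ranged from -0.57 to 0.68 with a median of 0.28, and in the run of Vadar_g26641.v1.2 from 0.18 to 0.77 with a median of 0.38. In the run of 5 members they ranged from -0.80 to 0.76 with a median of -0.10, and another run, of 3 members, had a median of -0.15. Each value rests on 9 libraries taken as deviations from 3 group means, so fewer than 9 of them are independent. Genes that share reads could also deviate together. The part of shared reads was not tested.

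The neighbours that were not members moved little in the median. Of 246 such Vadar genes 178 passed the count filter. For young fruit against flowering 36 of them (20.2%) were called higher and 14 (7.87%) lower, where 11.7% of all Vadar genes tested were higher and 9.75% lower. For young fruit against water 59 (33.1%) were higher and 39 (21.9%) lower, where the shares among all Vadar genes tested were 27.2 and 27.7%. For flowering against water 49 (27.5%) were higher and 51 (28.7%) lower, close to the 26.0 and 26.5% of all. The medians of their log2 fold changes were 0.06, 0.06 and -0.01 in these comparisons.

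The 28 members without the Vadar prefix are set beside the others here with no test of the difference. Their median was 4.78 CPM in water and 19.2 CPM after young-fruit potassium, against 5.60 and 36.6 CPM for Vadar members, and 7 of the 28 reached 100 CPM. Their ratio of young fruit to water had a median of 4.96 (range 2.95 to 503), against 5.74 (range 2.26 to 157). Of their 55 listed neighbours, counted as for the Vadar members, 2 were members, which are the members ranked 7 and 187 and carry consecutive numbers. These 2 differed more than 100-fold in level after young-fruit potassium, at 901.7 and 8.75 CPM, and in their second step, at 2.39 and 13.8-fold.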

How the data were processed

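For 9 fruit libraries the authors deposited raw counts per gene as whole numbers. Per the submitters' processing notes, HISAT2 2.1.0 and StringTie 1.3.4d were used, with no roles given. Counting tool, genome build, annotation and strandedness: not given in the sources used here. If a transcript assembler supplied the counts, they can be rounded estimates. Gene lists for pigment, potassium, sulfate, sugar, cell wall, hormones and tissue markers could not be matched to identifiers.

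CPM were computed over all 38665 genes with TMM factors in edgeR 4.0.16 (R 4.3.3), and groups come from the titles. Genes passing filterByExpr (minimum count 10, minimum total 15) were fitted with edgeR's quasi-likelihood test to all 9 libraries, 1 term per group, with Benjamini-Hochberg adjustment over 25728 genes. The SE of a log2 fold change is its size over the root of its F value. The fit was tested on simulated data. The members, the gene lists and the tests were chosen with earlier results of these data known. The rule for named genes was: the most abundant Vadar member after young-fruit potassium, and that with the largest ratio of young fruit to water among members with at least 10 water counts. Chi-square per degree of freedom between replicates was 2.69 to 6.29, so no pair looked like 1 library deposited in duplicate. Alternatives covered scaling, filters, DESeq2 1.42.0, limma 3.58.1 with voom, the replicate block, other thresholds of the rule and each library left out.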

Additional observations from a re-analysis of the deposited data

Results flagged for a closer look

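Listed here are values whose change from water was unlike at the 2 timings, by the direct edgeR test of young fruit against flowering. That difference is built into the rule, so the values are descriptions. Higher levels after young-fruit than after flowering potassium were called by edgeR in 221 members, and in 10.4% of all genes tested. The log2 fold change between the timings was 0.67 for Vadar_g29338.v1.2 and 1.92 for Vadar_g26641.v1.2. The 3 groups did not overlap in either gene, as in 96.9% of all members and, in the same order, 5.59% of all genes tested.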

How the results depend on the processing

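The number of members follows the thresholds: 375 genes met the rule with a floor of 1 CPM, 536 with steps of 25% and 83 with steps of 2-fold. Scaling by library totals alone left 200 members, all among the 223, and put the median of all genes, on the log2 scale, at -0.13, -0.14 and -0.01 in the 3 comparisons. RLE scaling gave 227 and upper quartile scaling 230, of which 223 and 218 were among them. With any 1 library removed the rule gave 216 to 238 members, and 174 of the 223 met the rule in all 9 cases. The counts of members called stayed between 210 and 223 in 54 alternative values, and a filter on a mean of 50 counts tested only 215 members. With the replicate block the counts were 218, 223 and 221, as without it. In the main fit 24.3, 25.6 and 10.4% of all genes tested were called higher in these comparisons, and the rule had used them to choose the members. Libraries with the same number did not deviate together (r from -0.04 to 0.05). These values cannot decide whether the numbers pair the samples, since a pairing with little effect on the counts would look the same. The fold changes of both named genes kept their direction and their side of the threshold in 108 values. In held-out libraries 99.1% of genes were in order with replicate 2 held out, against a mean of 97.3%. With numbers at most 1 apart 25 members fell into runs, and with at most 2 or 10 apart 37 and 50, alternatives chosen after seeing the data. Depth limits the scarce members most: 3 had fewer than 10 counts over the water libraries.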
